A study of Rattus norvegicus with 19 samples.

Results

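The response of hippocampal neuron cultures to potassium chloride (KCl) was described from 6 of the 19 total RNA-seq libraries of the series, 3 from KCl-treated and 3 from vehicle-treated cultures. The libraries were chosen by their labels alone, namely the region and the treatment. All cultures were primary neurons from Sprague-Dawley rat embryos of embryonic day 18. They received KCl or the vehicle, neurobasal medium, for 1 h on day 11 in vitro, and the labels name no transgene or other agent for either group. The sample labels give 25 mM KCl. The design text of the series and the paper's account of its RNA-seq cultures give 10 mM, and the paper used 25 mM in a separate time course. The concentration is therefore not certain. The other 13 libraries came from 6 cortical and 7 striatal cultures, of which 1 cortical vehicle library is called striatal in its tissue label and cortical in its title and was kept with cortex. The labels call the libraries biological samples without saying whether they came from separate dissections, so the p-values measure the spread between these samples.

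Raising extracellular potassium depolarizes neurons and opens voltage-gated calcium channels. Calcium entry activates kinases that phosphorylate CREB and the partners of SRF, transcription factors already bound at the promoters of immediate early genes, and these genes are then transcribed without new protein synthesis. Many of their products are themselves transcription factors, and others act at synapses or switch off the kinases. Active enhancers near such genes are transcribed on both strands into short enhancer RNAs (eRNAs), which are mostly neither spliced nor polyadenylated and are therefore kept only by libraries made from total RNA.

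RNA was read at 2 kinds of feature. A transcriptionally active putative enhancer (TAPE) is an intergenic stretch of open chromatin with RNA from both strands, and its level is given in CPKM, reads per kb and per 1000000 reads of the library. The table held 27538 TAPEs, of which 1870 had a mean of at least 0.05 CPKM over all 19 libraries and were tested. The TAPE nearest below that limit had a mean of 0.049999 CPKM and the nearest above it 0.050029 CPKM. TAPEs were defined in part from the RNA of these same libraries, so being transcribed is no finding about them. Genes were read as reads per 1000000 library reads (CPM), recovered from the deposited correlations, and 12771 genes with a mean of at least 0.2 CPM were tested. CPM is not divided by gene length, so levels were compared between libraries and not between genes.

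Library size, worked out from the CPKM values, was 55.2 to 60.0 M reads in the 6 hippocampal libraries and 46.4 to 72.5 M reads in the other 13. A tested TAPE held a median of 10.2 reads per hippocampal library, so counting error was large for single TAPEs and small for most genes. The hippocampal label was checked against a defining marker. Prox1, a homeobox factor of dentate granule neurons, stood at 157 to 162 CPM in the hippocampal vehicle libraries, against means of 8.17 CPM in cortex and 3.28 CPM in striatum. Not every hippocampal marker was higher than in cortex. Mean vehicle levels in hippocampus and cortex were 81.7 and 93.7 CPM for Neurod6 and 32.5 and 36.0 CPM for Wfs1. The rest of the 13 tested hippocampal neuron markers were higher in hippocampus than in cortex. The cultures were not of neurons alone. Gfap, the intermediate filament of astrocytes, stood at 739 to 764 CPM in hippocampal vehicle libraries, against means of 42.7 CPM in cortex and 3.78 CPM in striatum. Other astrocyte markers did not share this gap with cortex. Mean vehicle levels in hippocampus and cortex were 760 and 652 CPM for Slc1a3 and 159 and 122 CPM for Aqp4. They were lower in hippocampus for Gja1 (112 and 157 CPM), Sox9 (55.4 and 78.4 CPM) and Aldh1l1 (9.69 and 22.8 CPM). The 3 microglial markers with recovered reads (Csf1r, P2ry12 and Tyrobp) summed to at most 0.0707 CPM in any hippocampal library. In such mixed cultures fewer cells of a type and less RNA per cell cannot be told apart.

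The sequences that the comparison turns on are given first. The study placed guides for an enhancer-targeted activator within 5 TAPEs, enhancers 1 to 3 of Fos, an enhancer of Fosb and an enhancer of Nr4a1, and these guides mark the positions, in the Rn6 build, whose RNA is followed below. All are in lower case because no part of them was singled out.
Fos enhancer1 guide at chr6:109262269: gaggagactaactgagcagc
Fos enhancer2 guide at chr6:109281666: gcctgttgtcatgactgccg
Fos enhancer3 guide at chr6:109312925: gggtgggggcctctgacggg
Fosb enhancer guide at chr1:80231959: gttgtttgtccccggccagg
Fosb enhancer guide at chr1:80232050: gagggctcaaggagtcgctc
Fosb enhancer guide at chr1:80231980: accttcctgtcgctaggcaa
Nr4a1 enhancer guide at chr7:142890863: gtgtgtggaaacttgtagcg
Nr4a1 enhancer guide at chr7:142891090: cgggctccctgcggattgcg

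The study also made copies of the eRNAs of Fos enhancers 1 and 3. They are shown as the study designed them, since they are the RNA letters that reads at these TAPEs may represent, and their exact place in the genome is not given in the sources used here.
Fos eRNA1: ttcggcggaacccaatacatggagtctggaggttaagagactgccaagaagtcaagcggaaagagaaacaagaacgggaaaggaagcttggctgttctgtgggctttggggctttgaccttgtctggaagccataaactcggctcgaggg
Fos eRNA3: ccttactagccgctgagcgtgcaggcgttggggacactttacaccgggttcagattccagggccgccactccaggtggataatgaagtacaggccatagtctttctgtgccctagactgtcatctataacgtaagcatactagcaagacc

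Depolarization raised the immediate early genes within the hour. By limma with Benjamini-Hochberg adjustment, 564 of the 12771 tested genes were higher with KCl (4.42%) and 969 were lower (7.59%) at an adjusted p under 0.05. Large changes were mostly increases, with 81 genes called higher by more than 2-fold and 20 called lower by more than 2-fold. The median gene moved by -0.04 on the log2 scale. After each library was centred on its median gene, 900 genes were higher and 674 lower, so that the share of higher genes among all calls went from 36.8% to 57.2%. All 564 genes called higher before centring were also called higher after it, and the 674 lower genes were all among the 969. With 1 library left out the number of lower genes was 1175 (without vehicle 1), 464 (without vehicle 2), 459 (without vehicle 3), 916 (without KCl 1), 442 (without KCl 2) or 545 (without KCl 3).

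**Figure D1:**
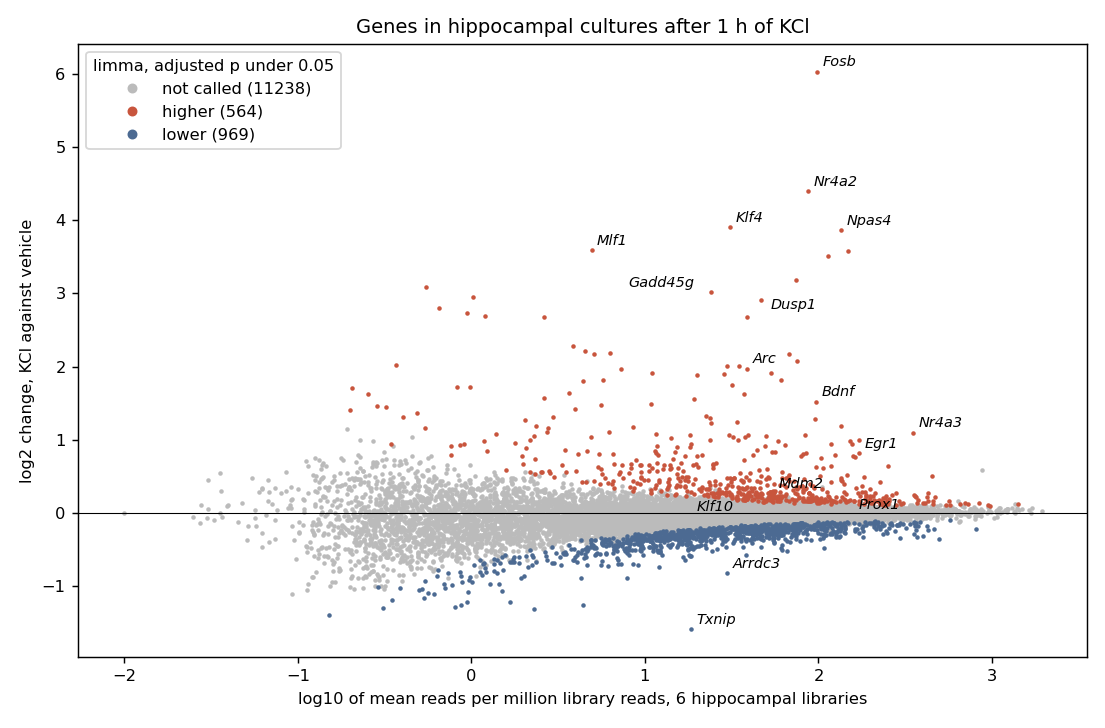
Each point is 1 of the 12771 tested genes, with the log10 of its mean CPM in the 6 hippocampal libraries on the x axis and its log2 change with KCl on the y axis. The 564 genes called higher (red) reach a log2 change of 6.03 at Fosb, and the 969 called lower (blue) are mostly small changes.

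Of the 27 transcription factors listed as activity-induced, 26 rose and 1 did not pass the test. Their median log2 change was 1.75, and 20 were more than 2-fold higher. The AP-1 genes led. Fosb, which encodes a partner of Jun proteins in the AP-1 dimer, stood at 2.67, 3.51 and 2.50 CPM in the 3 vehicle libraries and at 207, 183 and 192 CPM in the 3 KCl libraries. Every KCl library was far above every vehicle library, a 65.4-fold rise (log2 6.03, SE 0.10, limma adjusted p = 2.69e-18) and the largest among all genes tested. Fos, the best known neuronal activity marker, went from 22.7, 21.9 and 24.4 CPM to 282, 268 and 275 CPM. The groups lay far apart and varied little within themselves (log2 3.57, SE 0.05, limma adjusted p = 3.16e-19). Junb rose 9.05-fold, Fosl2 3.08-fold and Jun, already at 88.9 to 92.2 CPM with vehicle, 1.74-fold. Fosl1 was near 1 CPM throughout, at 1.03, 0.896 and 0.616 CPM with vehicle and 1.77, 1.43 and 1.55 CPM with KCl. Its call (log2 0.85, limma adjusted p = 0.0144) was lost without vehicle 3 and without KCl 1.

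The Nr4a genes encode orphan nuclear receptors that act without a known hormone. Nr4a2 went from 7.83, 7.41 and 8.13 CPM to 185, 165 and 151 CPM, the next largest rise after Fosb (21.1-fold, SE 0.07 on the log2 scale, limma adjusted p = 2.69e-18). Nr4a1 went from 19.5, 16.6 and 18.5 CPM to 219.8, 203 and 203 CPM, an 11.4-fold rise. Nr4a3 had a much higher start, at 218 to 227 CPM with vehicle, and rose 2.14-fold to 449 to 514 CPM. The family thus reached higher absolute levels through different folds.

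Npas4, a neuron-restricted factor that couples calcium entry to inhibitory synapse number, stood at 17.7, 16.9 and 16.8 CPM with vehicle and at 262, 235 and 259 CPM with KCl. No value of one group came near the other (14.6-fold, SE 0.05 on the log2 scale, limma adjusted p = 3.16e-19). Klf4, a zinc finger factor best known from pluripotent cells, went from 3.63, 3.34 and 4.40 CPM to 63.5, 55.8 and 54.3 CPM (log2 3.90). Klf2 rose 2.98-fold and Klf6 2.42-fold, whereas Klf10 stayed at 17.7 to 19.4 CPM in all 6 libraries and did not pass the test (log2 -0.05, limma adjusted p = 0.709, 95% interval -0.19 to 0.09). Klf10 was the only factor of the list that was not called.

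The 4 Egr genes, zinc finger factors induced through SRF, all rose. Egr4 went from 8.15, 9.11 and 8.21 CPM to 32.0, 28.8 and 34.0 CPM, 3.68-fold. Egr3 rose 2.05-fold, Egr2 1.91-fold and Egr1 1.76-fold, the last from 119, 123 and 129 CPM to 209, 209.5 and 236 CPM. All 4 kept the 2 groups apart. Among the other factors, Maff rose 4.55-fold, Atf3, a stress-induced partner of CREB family proteins, 3.92-fold, Crem, whose ICER isoform represses CREB targets, 3.72-fold, and the circadian factor Nfil3 3.37-fold. The circadian repressor Per1 rose 1.77-fold and Ier5 1.31-fold, the smallest called rise of the list.

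Of the 26 listed signalling and synaptic genes 25 had recovered reads and passed the filter, and 20 of these rose. Ptgs2 reads were not recovered. The median log2 change was 0.78 and 11 genes were more than 2-fold higher, which was a smaller response than that of the transcription factors. Gadd45g, a growth arrest and DNA demethylation factor, led with 4.28, 5.58 and 5.96 CPM going to 40.8, 42.2 and 45.9 CPM (8.08-fold, limma adjusted p = 3.04e-13). Gadd45b rose as well (log2 2.17). Sik1, a salt-inducible kinase that holds CREB coactivators in the cytoplasm, went from 28.6, 29.9 and 28.0 CPM to 131, 116 and 120.3 CPM, 4.23-fold. Every one of these KCl values lay above every vehicle value.

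Arc, which encodes a synaptic protein that promotes removal of AMPA receptors, stood at 14.5, 18.5 and 14.7 CPM with vehicle and at 60.8, 60.6 and 64.7 CPM with KCl. The rise of 3.91-fold (log2 1.97, SE 0.08, limma adjusted p = 3.41e-12) was far larger than the spread within either group. Bdnf, the secreted neurotrophin, went from 48.5, 53.0 and 49.4 CPM to 159, 136 and 139 CPM, 2.86-fold, and Homer1, a postsynaptic scaffold with a short activity-induced form, rose 1.99-fold. Of the other synaptic and secreted products, Pcsk1, the prohormone convertase, rose by 1.81 on the log2 scale, the pentraxin Nptx2 by 0.48, and the granule proteins Vgf and Scg2 by 0.47 and 0.45. The RGS proteins, which speed G protein shut-off, rose too, Rgs2 4.04-fold and Rgs4 1.69-fold. The 5 tested genes that were not called were Inhba (log2 0.03), Rrad (0.08), Ctgf (0.21), Sertad1 (0.35) and Mn1 (0.13), the first 2 of which stayed at or under 0.525 CPM in every library. Mn1 passed once libraries were centred (limma adjusted p = 0.0249), and Pim1 (log2 0.78) lost its call without vehicle 3.

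Of the 7 listed phosphatases of the DUSP family, which dephosphorylate MAP kinases, 5 rose, with a median log2 change of 0.49. Dusp1, a nuclear phosphatase, went from 10.9, 10.8 and 11.2 CPM to 85.0, 83.5 and 79.7 CPM, 7.49-fold (limma adjusted p = 6.94e-17). Dusp14 rose 2.15-fold, Dusp6, the cytoplasmic ERK phosphatase, 1.98-fold, and Dusp4 and Dusp5 by 0.49 and 0.35 on the log2 scale. Dusp2 (log2 -0.15) and Dusp16 (log2 0.02) were not called. Over the 3 lists together 51 of 59 tested genes were higher and none was lower, with a median log2 change of 1.19 against -0.04 over all genes tested. By the standardized gene profiles solved from the deposited correlations, which give an order of libraries but no fold, 54 of the 60 listed genes had all 3 KCl values above all 3 vehicle values, against 1337 of 16468 genes (8.12%), with 2767 (16.8%) in the opposite order. The lists were drawn up with earlier results of these data known, so the count is not independent evidence of their direction.

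**Figure D2:**
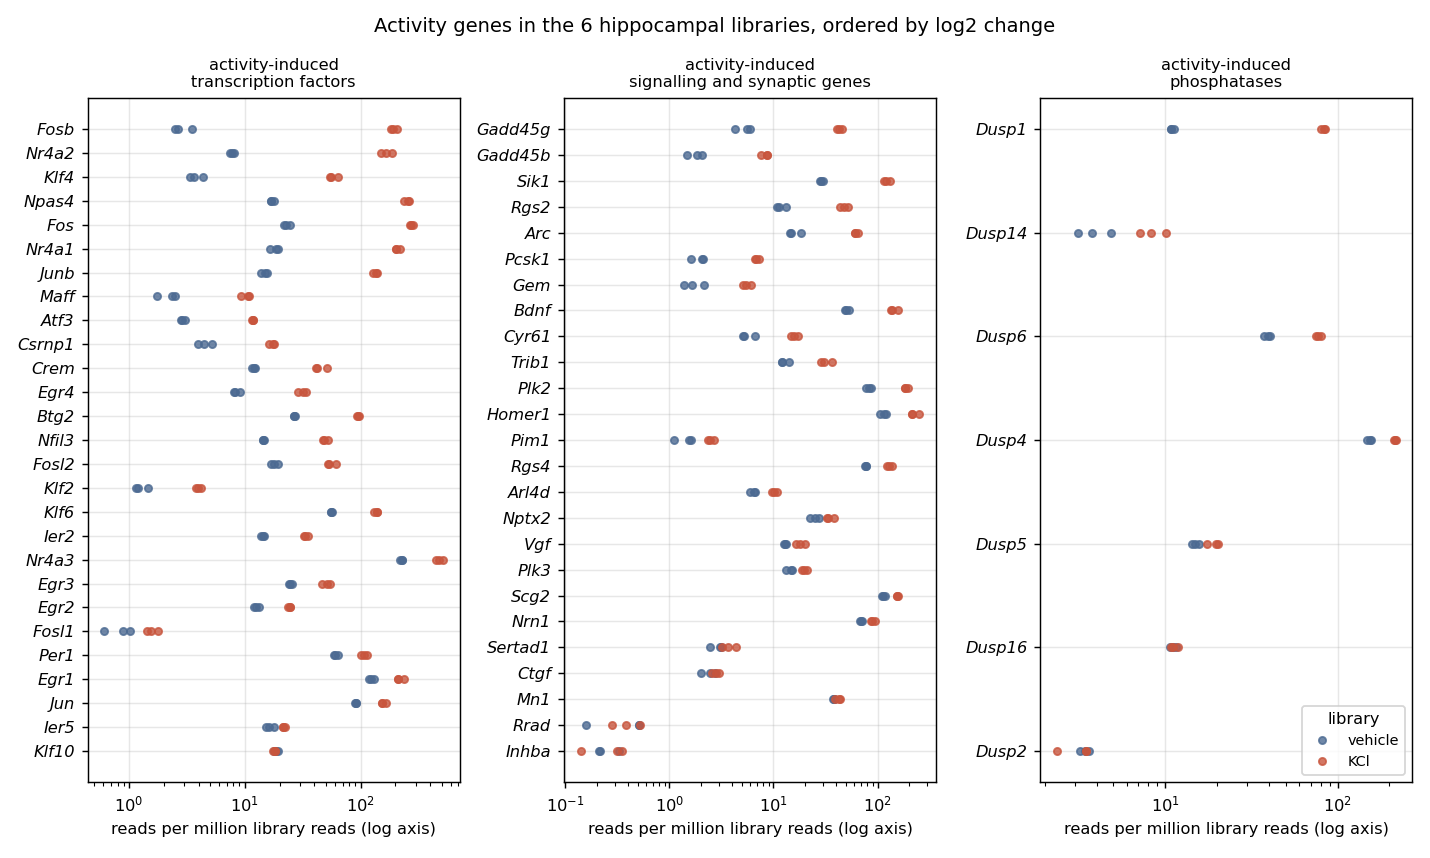
CPM (log x axis) of the 59 listed genes with recovered reads, each gene 1 row with 3 vehicle (blue) and 3 KCl (red) points, ordered within each list by log2 change. Fosb at the top moves from 2.50 to 3.51 CPM up to 183 to 207 CPM, while Klf10, Inhba and Dusp2 at the bottom overlap.

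Genes outside the lists were picked for their values, from the 15 largest called changes in each direction among genes of at least 1 CPM. Only some of these are named, not always the largest, and they are given as a description. Mlf1, a myeloid leukaemia factor also found in ciliated cells, went from 0.796, 0.930 and 0.380 CPM to 10.6, 8.46 and 8.28 CPM (log2 3.59). Dnaaf2, needed for assembly of dynein arms, rose 6.39-fold, from 10.1 to 10.7 CPM up to 63.0 to 72.6 CPM. Fbxo33, an F-box protein of a ubiquitin ligase, rose 4.49-fold, and Tiparp, a mono-ADP-ribosyltransferase, 3.76-fold. The inward rectifier potassium channel gene Kcnj2 rose 4.85-fold from a mean of 1.25 CPM, and Gch1, the entry enzyme of tetrahydrobiopterin synthesis, 4.63-fold. Each of the 6 had 3 KCl values above its 3 vehicle values, as did 9.55% of all tested genes. Since they were picked for their change in these libraries, this adds no evidence.

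Decreases were smaller. Txnip, the thioredoxin inhibitor that limits glucose uptake, fell from 29.0, 26.0 and 27.9 CPM to 6.89, 10.6 and 10.4 CPM (log2 -1.59, SE 0.12, limma adjusted p = 3.83e-08). Its relative Arrdc3, also an alpha-arrestin, went from 41.1, 31.4 and 41.8 CPM to 18.0, 22.4 and 24.0 CPM (log2 -0.83). Tnfrsf25, a death domain receptor, went from a mean of 3.32 to 1.27 CPM and Cd46, a complement regulator, from 10.3 to 5.53 CPM. The groups did not overlap for any of these 4 genes, which were likewise picked for their change. All KCl values lay below all vehicle values in 19.7% of all tested genes. Cep295nl also fell (log2 -1.27), but it overlaps Timp2 in the annotation and the strand used for counting is not stated, so its reads cannot be assigned with certainty.

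The hairpin genes of miR-132 and miR-212, which lie side by side in 1 CREB-responsive transcript, were among the genes that rose. The Mir132 hairpin (Rn6 chr10:62014995-62015095) went from 0.301, 0.103 and 0.109 CPM to 2.15, 1.02 and 1.88 CPM, and the Mir212 hairpin (Rn6 chr10:62014702-62014812) from 0.141, 0.138 and 0.163 CPM to 2.17, 1.22 and 2.22 CPM. The groups did not overlap for either (log2 2.73 and 2.95, limma adjusted p = 1.4e-05 and 5.48e-07). These reads come from the primary transcript, and the mature miRNAs were not measured. The mature strands (RefSeq, GRCr8) are shown because the members share a seed, bases 2 to 8 in capitals, on the 3p arm and differ in it on the 5p arm.
rno-miR-132-3p: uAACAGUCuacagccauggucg
rno-miR-212-3p: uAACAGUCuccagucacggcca
rno-miR-132-5p: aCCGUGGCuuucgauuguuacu
rno-miR-212-5p: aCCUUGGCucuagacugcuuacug

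Promoters of the responding genes were searched for the CRE, the CREB site TGACGTCA, which reads the same on both strands, and for its shorter core TGACG on either strand, which every CRE contains. RefSeq promoters of the GRCr8 build run from 250 bases before to 50 after each start site, and 42 of the 60 listed genes, 448 of the 564 higher genes and 765 of the 969 lower genes had one. The CRE was in 9.82% of the promoters of higher genes, in 15.5% of the 58 promoters of genes more than 2-fold higher, in 1.96% of those of lower genes, in 3.16% of the 9971 promoters of tested genes and in 1.91% of all 27457 promoters. The core, within a CRE or not, was in 52.7% of the promoters of higher genes, 25.4% of those of lower genes and 31.1% of those of tested genes. The AP-1 site TGANTCA was in 5.13% of the promoters of higher genes and 4.51% of those of tested genes, the Nr4a site AAAGGTCA in 0.446% and 0.822%, and the SRE core in 1.79% and 1.21%. No test was run on these shares, and a match is not a site of binding.

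Among the 42 listed promoters 8 held the CRE, those of Dusp1, Maff, Btg2, Ier2, Plk2, Arl4d, Scg2 and Vgf. All 8 were called higher, but so were 51 of the 59 tested listed genes, so this does not set the genes with a CRE apart. The 5 with the largest log2 changes are shown in GRCr8, written from 5′ to 3′ on the strand of the gene with the CRE in capitals. The CRE starts 124 bases before the start site in Dusp1, 51 in Maff, 201 in Btg2, 66 in Ier2 and 66 in Plk2, so that it is near the transcribed part in all but Btg2.
Dusp1 promoter, chr10:17184603-17184902, plus strand: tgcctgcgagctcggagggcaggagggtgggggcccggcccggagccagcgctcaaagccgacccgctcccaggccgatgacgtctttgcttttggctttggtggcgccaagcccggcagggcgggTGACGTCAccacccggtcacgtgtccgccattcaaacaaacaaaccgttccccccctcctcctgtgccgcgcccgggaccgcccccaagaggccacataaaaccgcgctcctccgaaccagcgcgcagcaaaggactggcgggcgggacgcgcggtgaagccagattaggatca
Maff promoter, chr7:112792537-112792836, plus strand: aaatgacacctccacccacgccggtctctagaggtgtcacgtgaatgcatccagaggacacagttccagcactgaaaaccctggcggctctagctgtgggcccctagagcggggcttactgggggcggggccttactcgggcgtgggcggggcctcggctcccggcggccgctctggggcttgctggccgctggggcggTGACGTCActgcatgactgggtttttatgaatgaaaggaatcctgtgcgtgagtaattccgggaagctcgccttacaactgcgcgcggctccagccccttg
Btg2 promoter, chr13:48087641-48087940, minus strand: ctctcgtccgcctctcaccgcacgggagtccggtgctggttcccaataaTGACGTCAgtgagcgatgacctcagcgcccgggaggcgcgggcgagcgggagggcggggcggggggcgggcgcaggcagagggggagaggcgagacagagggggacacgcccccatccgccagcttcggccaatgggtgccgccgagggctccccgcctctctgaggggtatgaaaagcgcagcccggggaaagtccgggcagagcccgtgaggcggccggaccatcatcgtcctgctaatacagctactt
Ier2 promoter, chr19:40399123-40399422, plus strand: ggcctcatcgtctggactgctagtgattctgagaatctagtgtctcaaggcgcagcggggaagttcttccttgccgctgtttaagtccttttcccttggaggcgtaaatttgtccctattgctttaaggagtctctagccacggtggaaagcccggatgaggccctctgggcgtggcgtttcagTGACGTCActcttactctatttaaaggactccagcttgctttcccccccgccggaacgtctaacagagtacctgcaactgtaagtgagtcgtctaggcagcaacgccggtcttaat
Plk2 promoter, chr2:43702286-43702585, plus strand: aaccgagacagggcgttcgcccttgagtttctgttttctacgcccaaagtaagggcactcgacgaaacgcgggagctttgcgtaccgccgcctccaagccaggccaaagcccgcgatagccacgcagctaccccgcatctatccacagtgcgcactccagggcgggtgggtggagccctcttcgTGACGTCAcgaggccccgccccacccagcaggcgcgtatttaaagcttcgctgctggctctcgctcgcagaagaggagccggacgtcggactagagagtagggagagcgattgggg

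For TAPEs the distribution as a whole is given first. The median tested TAPE stood at 0.0884, 0.0975 and 0.0982 CPKM in the vehicle libraries and at 0.0819, 0.0748 and 0.0790 CPKM in the KCl libraries. All 3 KCl libraries were below all 3 vehicle libraries. The mean of the library medians was -2.79 ± 0.06 with vehicle and -2.96 ± 0.04 with KCl on the log2(CPKM + 0.05) scale (SD, n = 3 each), a difference of -0.17 (exact permutation p = 0.1, two-sided, the smallest that 3 against 3 can give). The share of library reads in TAPEs was 0.103, 0.114 and 0.112% with vehicle and 0.103, 0.0932 and 0.0964% with KCl (difference -0.0119 percentage points, exact permutation p = 0.2), so here the groups overlapped. The share of reads in genes was 70.1 ± 0.791% with vehicle and 70.1 ± 0.933% with KCl (exact permutation p = 0.9). Whether the drop of the median TAPE was a change of TAPE RNA or of its background was not tested.

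Single TAPEs that passed the test were few. In the libraries as deposited 1 of 1870 TAPEs was higher (0.0535%) and 0 were lower (0.0%) by limma at an adjusted p under 0.05, while 58 were higher and 191 lower at an unadjusted p under 0.05, and limma voom on the recovered reads called 1 higher and 0 lower. All 3 KCl values lay above all 3 vehicle values in 75 TAPEs (4.01%) and below them in 289 (15.5%). The median log2 change was -0.16 and 65.5% of tested TAPEs were below 0. After each library was centred on its median TAPE, 3 were higher (0.16%) and 1 was lower (0.0535%), 111 and 87 passed at an unadjusted p under 0.05, and the non-overlapping TAPEs numbered 179 higher (9.57%) and 143 lower (7.65%). The balance of directions therefore depended on centring, and for the TAPEs that results turn on the change relative to the median is given too.

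**Figure D3:**
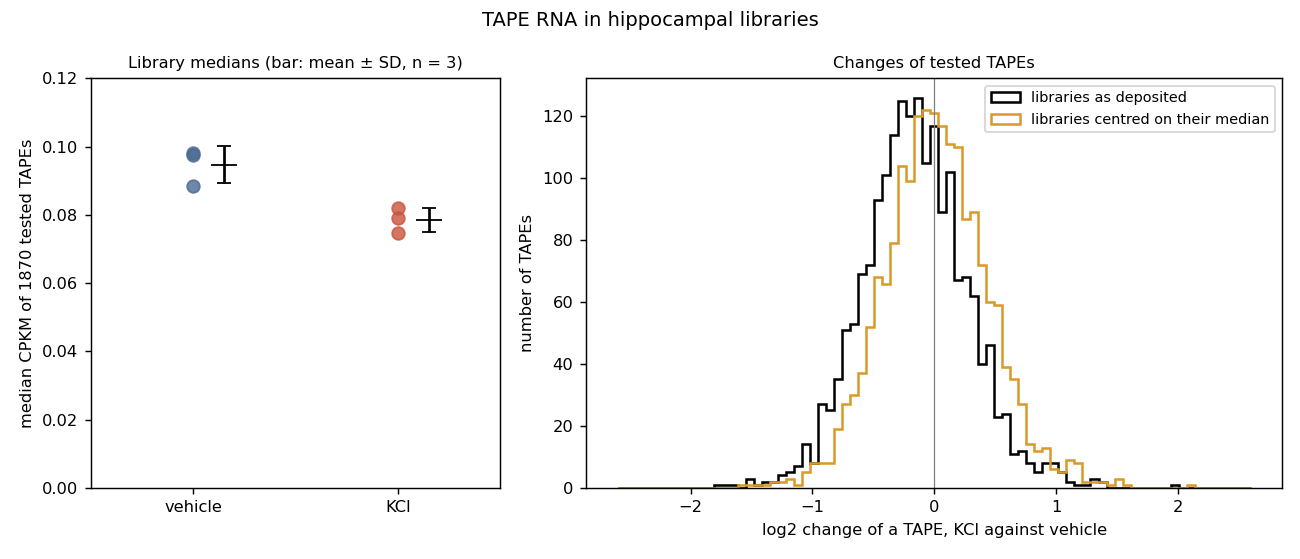
Left, the median CPKM of the 1870 tested TAPEs in each library (points, y axis from 0) with the mean ± SD of each group of 3. Right, histogram of the log2 change of each TAPE on the log2(CPKM + 0.05) scale, as deposited (black, median -0.16) and after centring (orange, median 0.01).

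The TAPE called in both fits lies at chr4:77413446-77416130 in Rn6, outside genes, 67777 bp from the start site of Ezh2, the histone H3 lysine 27 methyltransferase, and 54506 bp from the body of Pdia4, a chaperone of the endoplasmic reticulum. It stood at 0.119, 0.154 and 0.162 CPKM with vehicle and at 0.906, 0.532 and 0.707 CPKM with KCl, from 18, 24 and 24 reads against 139, 81 and 114 reads. The groups did not overlap, and the rise was 1.95 on the log2(CPKM + 0.05) scale (SE 0.22, limma adjusted p = 0.0243) and 2.12 relative to the median TAPE (adjusted p = 5.16e-05). Leaving out any 1 of the 6 libraries put the adjusted p between 0.0506 and 0.362 as deposited and left it between 3.44e-05 and 0.0022 after centring. The genes beside it did not follow, with Ezh2 at 25.2 and 23.9 CPM (log2 -0.08, limma adjusted p = 0.492) and Pdia4 at 29.8 and 32.6 CPM (log2 0.13, limma adjusted p = 0.155) for vehicle and KCl.

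The Fosb enhancer at chr1:80230915-80233062 holds the 3 Fosb guides shown above and lies 10279 bp from the Fosb start site and 9205 bp from the gene body (Rn6 chr1:80214494-80221710, minus strand). It stood at 0.0906, 0.144 and 0.0506 CPKM with vehicle and at 0.326, 0.320 and 0.295 CPKM with KCl. All KCl values were above all vehicle values (log2 1.55 relative to the median, SE 0.28, limma adjusted p = 0.0257 after centring and 0.154 as deposited), and the call after centring held only without vehicle 2 when libraries were left out. A TAPE at chr7:60749173-60751841, 7179 bp from the start site of Mdm2, the ubiquitin ligase that limits p53, went from 0.0663, 0.0710 and 0.0543 CPKM to 0.216, 0.218 and 0.287 CPKM (log2 1.52 relative to the median, limma adjusted p = 0.0257 after centring). Mdm2 itself was called higher, with KCl at a mean of 60.4 CPM (log2 0.27, SE 0.05, limma adjusted p = 0.0034). The TAPE called lower after centring, at chr1:219866328-219868137 and 3306 bp from the start site of Rce1, a protease of prenylated proteins, went from 0.401, 0.676 and 0.490 CPKM to 0.184, 0.175 and 0.120 CPKM (log2 -1.26 relative to the median, limma adjusted p = 0.0257 after centring), with Rce1 itself not called (log2 0.04). The calls of the Mdm2 and Rce1 TAPEs were each lost without any 1 of the 6 libraries. These 4 TAPEs had in turn 22, 68, 16 and 80 genes within 1 Mb. The highest Pearson correlation over the 6 libraries was with Pdia4 (0.72), Fosb (0.97), Mdm2 (0.88) and Doc2g (0.97). Each is the highest of many values over 6 points, so they are given as a description and do not single out a gene. Neither Pdia4 nor Doc2g was called (log2 0.13 and -0.34).

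The other TAPEs that hold study guides did not pass the test in hippocampus. Fos enhancer 1, at chr6:109261263-109264039 and 37782 bp from the Fos start site, stood at 0.0127, 0 and 0.00652 CPKM with vehicle (2, 0 and 1 reads) and at 0.0882, 0.0508 and 0.0360 CPKM with KCl (14, 8 and 6 reads). The groups did not overlap, and the change of 0.92 was not called (limma adjusted p = 0.192, and 0.147 at 1.09 relative to the median). Fos enhancer 3, at chr6:109311940-109315695 on the other side of Fos (Rn6 chr6:109300433-109303299), went from 0.0942, 0.142 and 0.0386 CPKM to 0.284, 0.183 and 0.177 CPKM (log2 0.95, limma adjusted p = 0.333, and 1.12 relative to the median, adjusted p = 0.153). Fos enhancer 2 overlapped, at 0.0471, 0.0306 and 0.0643 CPKM against 0.0621, 0.117 and 0.126 CPKM (log2 0.63, limma adjusted p = 0.416, and 0.80 relative to the median). The Nr4a1 enhancer at chr7:142890056-142891915 overlapped as well, at 0.0951, 0.102 and 0.0779 CPKM against 0.122, 0.0759 and 0.152 CPKM (log2 0.21, limma adjusted p = 0.766, 95% interval -0.43 to 0.85, and 0.38 relative to the median). The Fos gene between enhancers 1 and 3 rose 11.9-fold in the same libraries and Nr4a1 11.4-fold.

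**Figure D4:**
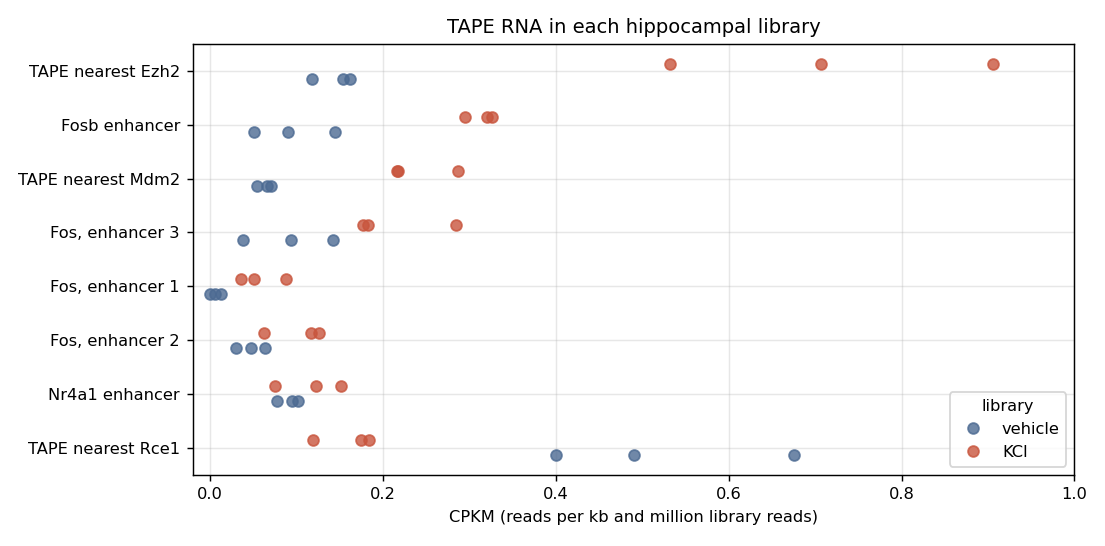
CPKM of 8 TAPEs in each hippocampal library, vehicle in blue and KCl in red, ordered by log2 change, namely the 4 called TAPEs and the 4 others that hold study guides. The groups are separate in all rows except Fos enhancer 2 and the Nr4a1 enhancer.

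By unadjusted p, the 10 leading higher TAPEs with non-overlapping groups changed by 0.86 to 1.95 on the log2(CPKM + 0.05) scale and the 10 leading lower TAPEs by -1.78 to -0.80. Most were read thinly. A TAPE at chr12:50950307-50953159, 298497 bp from the start site of Mn1, had 2, 2 and 0 reads with vehicle and 20, 12 and 16 reads with KCl (limma adjusted p = 0.154 as deposited and 0.0635 centred), and a TAPE at chr17:88778236-88780735 had 0 reads in all 3 vehicle libraries and 6, 12 and 4 reads with KCl. Among the lower ones, a TAPE at chr19:53999777-54001620, 59923 bp from the start site of Gse1, went from 13, 21 and 20 reads to 1, 4 and 0 reads (limma adjusted p = 0.154 as deposited and 0.0635 centred). A TAPE at chr8:63304212-63305577, 18121 bp from the start site of Insyn1, a protein of inhibitory synapses, was read more deeply and went from 0.595, 0.567 and 0.570 CPKM to 0.295, 0.168 and 0.232 CPKM (log2 -1.18, limma adjusted p = 0.153, and -1.01 relative to the median, adjusted p = 0.0621). Of the nearest genes of the 10 higher TAPEs 9 were tested and 3 were called higher, Fosb, Mdm2 and Resp18 (log2 0.45), a protein of secretory granules, against 9.38% of the nearest genes of all tested TAPEs. The nearest genes of the 10 lower TAPEs were all tested and 2 were called lower, Gse1 (log2 -0.22) and Zmynd8 (log2 -0.24), a reader of acetylated chromatin, against 8.90%.

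TAPEs around the activity genes were then counted. Of 222 TAPEs within 100 kb of the start site of a listed gene only 28 passed the filter on low values. Among these 28, 6 had all KCl values above all vehicle values (21.4%, against 4.01% of all tested TAPEs) and 3 below (10.7%, against 15.5%), and after centring the counts were 9 and 2. Their median log2 change relative to the median TAPE was 0.35, against 0.01 over all tested TAPEs, and 18 of the 28 were above 0. The filter kept TAPEs by their mean over all 19 libraries, so a TAPE could enter through KCl libraries, and several share a locus. Those around the transcription factors accounted for 21 of the 28, with 5 higher and a median of 0.38.

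Several loci show the range. Around Fosb, 4 tested TAPEs lay within 33 kb of the start site, the called enhancer among them. The 3 others went from 0.0756, 0.140 and 0.109 CPKM to 0.0748, 0.166 and 0.114 CPKM, from 0.0167, 0.0649 and 0.102 CPKM to 0.107, 0.0499 and 0.141 CPKM, and from 0.0276, 0.0404 and 0.0566 CPKM to 0.0615, 0.0689 and 0.0846 CPKM. Only the last kept its groups apart. A TAPE 57121 bp from Sik1, at chr20:10622072-10624253, went from 0.113, 0.118 and 0.0166 CPKM to 0.241, 0.162 and 0.199 CPKM (log2 1.02, limma adjusted p = 0.351, and 1.19 relative to the median), and 1 TAPE 7133 bp from Junb, at chr19:26100689-26103090, from 0.0515, 0.0932 and 0.121 CPKM to 0.131, 0.147 and 0.166 CPKM (log2 0.55, and 0.72 relative to the median). The TAPE 6659 bp from Arc overlapped, at 0.0610, 0.0339 and 0.0714 CPKM against 0, 0.0695 and 0.0410 CPKM, although Arc rose 3.91-fold. The TAPE 2553 bp from Inhba, whose gene was not called, went the other way, from 0.0992, 0.0901 and 0.0880 CPKM to 0.0327, 0.0396 and 0.0810 CPKM. So did TAPEs near Fosl1 and Klf2, whose genes were called higher. The TAPE 69209 bp from Fosl1 went from a mean of 0.346 to 0.218 CPKM (log2 -0.57, limma adjusted p = 0.256, and -0.40 relative to the median). The TAPE 59614 bp from Klf2 went from a mean of 0.0779 to 0.0230 CPKM (log2 -0.79, limma adjusted p = 0.352, and -0.62 relative to the median). No TAPE of this group other than the Fosb enhancer passed the test.

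Taking all called genes, TAPEs with all KCl values above all vehicle values made up 3 of 21 TAPEs (14.3%) up to 10 kb from the start site of a higher gene, 10 of 91 (11.0%) from 10 to 50 kb and 8 of 73 (11.0%) from 50 to 100 kb. From 100 to 200 kb the share was 5 of 127 (3.94%), near the 4.01% of all tested TAPEs. Around lower genes it was 0 of 20, 2 of 83 (2.41%) and 8 of 112 (7.14%) in the same 3 steps up to 100 kb. Of the 75 higher TAPEs 60 had a nearest gene that was tested, and 12 of these genes (20%) were called higher, against 137 of the 1461 nearest genes of all tested TAPEs (9.38%). Of the 217 tested nearest genes of the lower TAPEs 16 (7.37%) were called lower, against 130 of 1461 (8.90%). Across the 1461 TAPEs the log2 changes of a TAPE and of its nearest gene had a Pearson correlation of 0.15 and a Spearman correlation of 0.07, given as a description since all points come from the same 6 libraries and genes recur. Higher and lower TAPEs did not stand apart in the features measured, with median lengths of 2182 and 2051 bp against 2006 bp for all tested TAPEs, and 20% and 19.0% within 10 kb of a start site against 18.3%.

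Markers of the cell types in the cultures were read beside these changes, against calls for 4.42% (higher) and 7.59% (lower) of all tested genes. Of 6 tested astrocyte markers 1 was called higher, Sox9, a transcription factor of glia and progenitors (54.8, 58.4 and 53.1 CPM to 87.2, 73.0 and 78.1 CPM, log2 0.52, limma adjusted p = 1.1e-05), while the summed level of the list was 1812 to 1890 CPM with vehicle and 1859 to 1951 CPM with KCl. No call was made for the 7 oligodendrocyte lineage markers (sums of 415 to 501 CPM with vehicle and 406 to 494 CPM with KCl) or the 2 tested endothelial markers (7.63 to 8.15 and 6.26 to 7.71 CPM). Of 3 markers of dividing cells Top2a was called higher (log2 0.18), with sums of 93.9 to 102 and 103 to 107 CPM. Of 7 tested inhibitory neuron markers 4 were called higher, Gad1 (log2 0.16), Sst (0.27), Dlx2 (0.66) and Dlx5 (0.54), and the summed level was 346 to 371 CPM with vehicle and 379 to 393 CPM with KCl. Of 7 tested striatal markers Foxp1 was called lower (log2 -0.23), with sums of 50.8 to 59.8 and 47.8 to 50.7 CPM. Of 13 tested hippocampal neuron markers Emx2, a homeobox patterning gene (log2 0.66), and Neurod1 (0.16) were called higher and the kainate receptor gene Grik4 (-0.32) and the mineralocorticoid receptor gene Nr3c2 (-0.36) lower, with sums of 723 to 769 and 696 to 733 CPM. With 1 library left out, Dlx5 and Neurod1 kept their calls only without vehicle 1, and Top2a only without vehicle 3. Gad1 lost its call without vehicle 3, KCl 1 or KCl 2. Dlx2 lost its call without vehicle 2, vehicle 3, KCl 1 or KCl 3, and Foxp1 without vehicle 2, vehicle 3, KCl 2 or KCl 3. The part of these markers in the other results was not tested.

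The hippocampal response was compared with those of cortex and striatum by testing the difference of the KCl effects, with each library centred on its median. For genes 46 effects were larger (0.36%) and 212 smaller (1.66%) in hippocampus than in cortex, and 112 were larger (0.877%) and 204 smaller (1.6%) than in striatum. Without the cortical vehicle library whose labels disagree, the counts against cortex were 89 and 366. Of the 59 listed genes 4 had a larger and 27 a smaller effect than in cortex, and 13 a larger and 19 a smaller effect than in striatum. All comparisons share the hippocampal libraries.

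Egr genes and Arc responded less in hippocampus. Egr1 went from 124 ± 5.05 to 218 ± 15.7 CPM in hippocampus (SD, n = 3 each), from 57.7 ± 5.19 to 430.5 ± 43.5 CPM in cortex (n = 3 each) and from 51.7 ± 10.3 (n = 4) to 386 ± 14.8 CPM (n = 3) in striatum. The hippocampal log2 effect was smaller by 2.07 than that of cortex and by 2.14 than that of striatum (limma adjusted p = 2.08e-09 and 6.84e-10). Egr2 went from 12.7 to 24.3 CPM in hippocampus, 2.92 to 44.1 CPM in cortex and 4.49 to 45.3 CPM in striatum, and Arc from 15.9 to 62.0 CPM, 2.78 to 117 CPM and 15.3 to 205 CPM. For Egr1 and Egr2 the hippocampal vehicle level was above both other regions and the KCl level below both. Cyr61, a matricellular protein, went from 5.66 to 15.9 CPM in hippocampus and from 2.73 to 84.3 CPM in cortex, and Fosl1 from 0.846 to 1.58 CPM and from 0.128 to 3.93 CPM.

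Other listed genes had a larger log2 effect in hippocampus than in cortex, striatum or both. Nr4a2 reached 167 ± 17.2 CPM from 7.79 ± 0.366 CPM in hippocampus, 283 ± 20.2 from 31.9 ± 3.42 CPM in cortex and 157 ± 9.04 from 19.4 ± 3.63 CPM in striatum, a larger log2 effect than in either (by 1.27 and 1.34, limma adjusted p = 5.05e-06 and 1.12e-06). Its vehicle level in hippocampus was the lowest of the 3 regions, and its level with KCl was highest in cortex. Klf6 rose from 56.0 to 136 CPM in hippocampus against 130.3 to 149 CPM in cortex. Klf4 had a smaller effect than in cortex (72.5 CPM with KCl, from 1.42 CPM) but a larger one than in striatum (7.91 CPM, from 1.34 CPM). Klf2, at 1.27 and 3.98 CPM in hippocampus, stood at 0.720 and 0.671 CPM in striatum, and the Fosb effect was larger than in striatum, where the vehicle level was already 35.7 ± 11.2 CPM. Unlisted genes named above had been picked for their hippocampal rise. Of these, Mlf1, Dnaaf2, Fbxo33, Kcnj2 and Gch1 had a larger effect than in cortex and in striatum, and Tiparp a smaller one than in both. Kcnj2 differed by 2.25 and 2.16, with means of 11.7 and 12.1 CPM in cortex and 3.82 and 4.05 CPM in striatum for vehicle and KCl. The levels of Gfap and Prox1 given above differ between the same regions, and their part in these differences was not tested. The KCl effect on Prox1 differed too, with log2 changes of -0.02 in hippocampus, 1.09 in cortex and 1.22 in striatum. Its hippocampal effect was smaller by 1.09 than in cortex and by 1.27 than in striatum (limma adjusted p = 2.37e-06 and 9.84e-08).

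**Figure D5:**
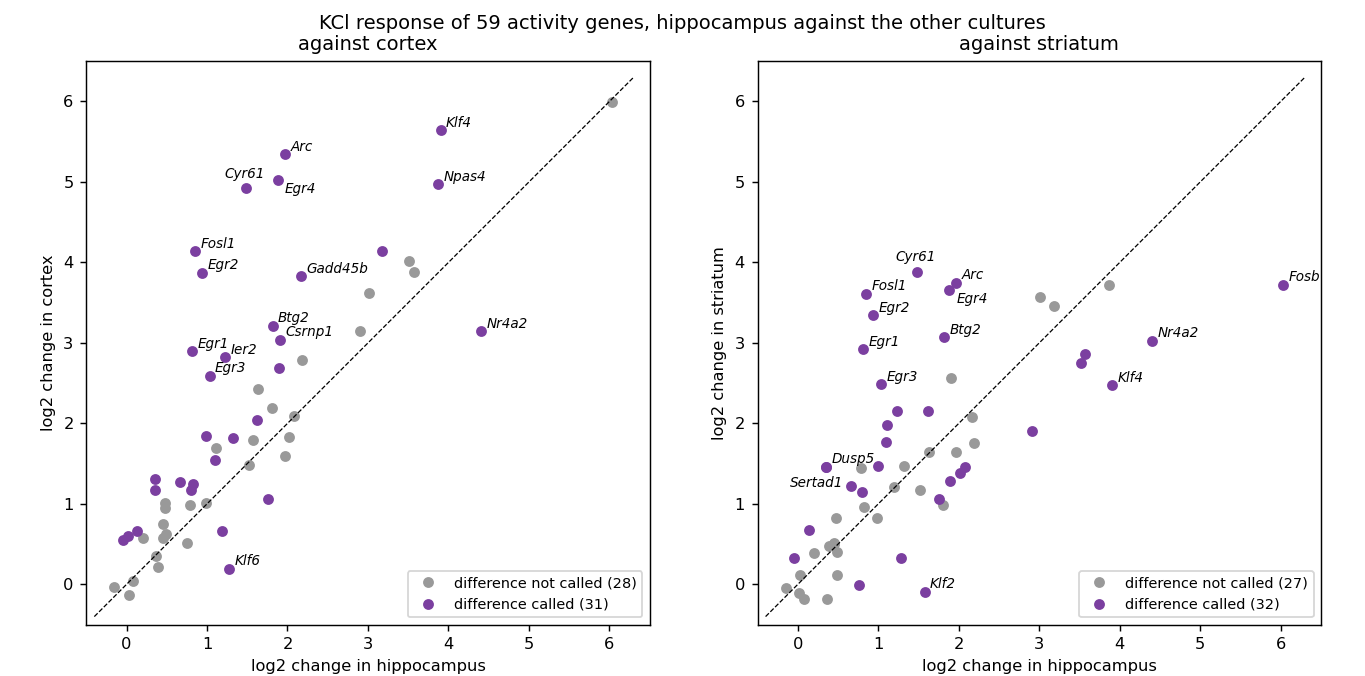
Log2 change with KCl of the 59 listed genes, hippocampus on the x axis against cortex (left) or striatum (right) on the y axis, with equality as a dashed line. Genes whose effects differ at an adjusted p under 0.05 are purple (31 and 32 genes) and those differing by more than 1 on the log2 scale are named, such as Arc above the line and Nr4a2 below it.

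For TAPEs no effect was called larger (0.0%) or smaller (0.0%) in hippocampus than in cortex by limma, with 78 and 59 at an unadjusted p under 0.05. Against striatum 1 effect was larger (0.0535%) and 0 were smaller (0.0%), with 76 and 73 at an unadjusted p under 0.05. The 1 TAPE was that at chr4:77413446-77416130, which stood at 0.424 CPKM with vehicle and 0.370 CPKM with KCl in striatum and at 0.332 and 1.73 CPKM in cortex (means). Its effect was larger than in striatum by 2.12 on the log2 scale (SE 0.29, limma adjusted p = 0.000108), and its difference from cortex was -0.18 with a 95% interval of -0.80 to 0.44. For the Fosb enhancer the difference was 0.41 from cortex (95% interval -0.60 to 1.41) and 0.71 from striatum (-0.26 to 1.69), and for the Nr4a1 enhancer -0.65 (-1.46 to 0.15) and -1.73 (-2.51 to -0.95, limma adjusted p = 0.0868). For the Fosb enhancer both intervals include 0 and reach beyond 1, so these libraries do not settle whether its response differs between regions.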

How the data were processed

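Total RNA was measured in 19 libraries, of which the 6 hippocampal ones are reported. The authors checked reads with FastQC, trimmed them with Trim Galore 0.4.5, aligned them with STAR to rn6, merged lanes with SAMtools 1.9 and counted in SeqMonk, as the methods and the submitters' processing notes state. They deposited a CPKM (RPKM) value, reads per kb and 1000000 library reads, for each TAPE and library, summed over both strands, and, for each TAPE and gene up to 1 Mb apart, correlation scores over all or single-region libraries. The deposited table gives no expression values for genes.

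CPKM multiplied by TAPE length and a library size solved from the values gave whole reads for 100% of values, and these library sizes exceed the reads per sample in the labels. Gene profiles solved from the deposited correlation scores were whole reads, within 0.05 reads, for 15963 of 16228 genes, and the 15849 with a single position in the annotation were kept. They are the smallest whole numbers that match, so a level may be too low by a whole factor. Ratios between libraries do not depend on that factor, but a change on the log2(CPM + 0.1) scale of a low gene does. Whether the authors counted exons or used strand is not given in the sources used here, and genes that share reads are uncertain.

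TAPEs were fitted on log2(CPKM + 0.05) and genes on log2(CPM + 0.1), which understate changes of low features, with limma 3.58.1 (mean-variance trend) in R 4.3.3 and Benjamini-Hochberg adjustment over all features tested, two-sided. TAPEs needed a mean CPKM of at least 0.05 and genes a mean of at least 0.2 CPM over 19 libraries. The gene fit was added after the data were seen, and the order of standardized profiles was the planned gene result. Differences between regions were contrasts in a fit of all 19 libraries. Single values were tested by exact permutation. The fits were tested on simulated data. TAPEs named are those called as deposited or centred, the 10 leading in each direction with non-overlapping groups, those within 100 kb of listed genes and those holding study guides. Members and lists were chosen with earlier results of these data known. Alternatives were other pseudocounts, filters, fits, a replicate block and left-out libraries. Counting error can be judged only from the read numbers given. Whether these count single reads or both ends of a pair is not stated, so counting error may be larger than they show. The level of 1 further marker gene is not reported here.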

Additional observations from a re-analysis of the deposited data

Results flagged for a closer look

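The KCl effects of 30 items are given because a test of the difference between regions passed (limma, each library centred, adjusted over all features) and, for listed genes, the difference was over 1 on the log2 scale. The values below are the log2 effect in hippocampus minus that in the other region.

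Against cortex the effect was smaller in hippocampus for Cyr61 (-3.42), Arc (-3.36), Fosl1 (-3.27), Egr4 (-3.12), Egr2 (-2.92), Egr1 (-2.07), Klf4 (-1.72), Gadd45b (-1.64), Ier2 (-1.58), Egr3 (-1.55), Btg2 (-1.39), Csrnp1 (-1.12) and Npas4 (-1.09), and larger for Nr4a2 (1.27) and Klf6 (1.10). The limma adjusted p-values ran from 9.41e-14 for Arc to 0.0052 for Csrnp1.

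Against striatum the effect was smaller for Fosl1 (-2.80), Egr2 (-2.45), Cyr61 (-2.44), Egr1 (-2.14), Arc (-1.82), Egr4 (-1.81), Egr3 (-1.49), Btg2 (-1.29), Sertad1 (-1.15) and Dusp5 (-1.15), and larger for Fosb (2.27), Klf2 (1.63), Klf4 (1.39) and Nr4a2 (1.34). The limma adjusted p-values ran from 6.84e-10 for Egr1 to 0.00343 for Sertad1.

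Among TAPEs 1 met the same test, at chr4:77413446-77416130, with a larger effect in hippocampus than in striatum by 2.12 (limma adjusted p = 0.000108). Each group has 3 or 4 libraries, and the astrocyte marker Gfap and the granule neuron marker Prox1 differ between the same regions, whose part in these differences was not tested.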

How the results depend on the processing

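Counts of called TAPEs moved with most choices, and the cause was not tested. As deposited, 1 higher and 0 lower TAPEs became 0 higher with no filter on low TAPEs, 4 and 5 at a mean of at least 0.1 CPKM, 6 and 10 with the filter set on the hippocampal libraries, 5 and 14 in 1 fit of all 19 libraries and 0 higher with the replicate block, and every left-out library gave 0 and 0. Centred, 3 higher and 1 lower became 1 and 0 at a pseudocount of 0.01, 2 lower at 0.2, 0 and 0 with no filter, 5 and 3 at 0.1 CPKM, 13 and 9 with the hippocampal filter, 11 and 5 in 1 fit, 14 and 7 with the replicate block and 0 lower by limma voom, with 1 to 2 higher and 0 to 0 lower over left-out libraries. Against striatum, 1 smaller TAPE effect was called with no filter, and left-out libraries gave 1 to 1 larger and 0 to 1 smaller. Against cortex they gave 0 to 0 in both directions.

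For genes, 564 higher and 969 lower became 900 higher when centred, 262 and 120 with no filter on low genes and 583 lower with the replicate block, and left-out libraries gave 387 to 623 higher and 442 to 1175 lower. Differences between regions ranged over 31 to 89 larger and 165 to 366 smaller (cortex) and 76 to 103 and 155 to 196 (striatum). Profiles gave 941 higher and 1753 lower of 11035 from the global correlations and 605 and 1078 of 6600 among genes with 20 or more TAPEs, where fewer genes were solved and the lower share was 15.9% and 16.3% against 16.8%, and 1678 to 2144 and 3229 to 4145 over left-out libraries, where 3 values face 2. The difference of library medians ranged from -0.20 to -0.15. Same-numbered libraries did not deviate together (correlations of -0.09, -0.08 and 0.04 for genes), so the numbers were not taken as pairs. No block was possible against striatum, which shares too few replicate numbers. No called value reversed in any alternative run, while uncalled ones near 0 could change sign, such as the TAPE 6659 bp from Arc (-0.63 to 0.0016 over left-out libraries) and the Fosb TAPE at 17115 bp (-0.12 to 0.27). A tested TAPE held a median of 10.2 reads per library, and the part of depth in the number of calls was not tested.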
